A study of Homo sapiens with 24 samples.

Results

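The 200 most abundant long non-coding RNAs (lncRNAs) of SW1783 cells were followed through treatment with 2 extracts of Schisandrae Fructus (SF). SW1783 is an established human astrocytoma cell line. The members were selected on their mean CPM (counts scaled to the library total) over the 6 vehicle libraries, as the 200 highest among 14048 lncRNAs of the deposited table that were left after GAS5, ZFAS1 and the SNHG genes (30 in all) had been set aside. Levels in vehicle thus chose the members and are given as a description, and every comparison with vehicle shares those libraries with the choice. Cells were treated for 24 h with the hot water extract (WESF) at 20, 100 or 500 µg/mL in batch A, or with the ethanol extract (EESF) at 12.4, 62 or 310 µg/mL in batch B. Each batch had its own vehicle, 0.1% DMSO, and each of the 8 groups held 3 libraries (24 in all). The labels do not say whether the libraries of a group came from separate cultures, so p-values measure the spread between these libraries, which may be technical. The doses of the extracts differ, so that high, medium and low are ranks within an extract.

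LncRNAs are transcripts that are not translated into a known protein. Some act as nuclear scaffolds, such as MALAT1 in nuclear speckles and NEAT1 in paraspeckles, some carry miRNAs in their introns or exons, and many are transcribed from the opposite strand of a protein-coding gene or divergently from its promoter. Some stay in the nucleus and others are exported to the cytoplasm, and for most of them no function is established.

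Total expected counts per library were 18727797 to 32567395, lowest in vehicle B and highest after the high dose of EESF. MALAT1, the most abundant member, had a mean of 830.6 CPM in vehicle, the median member 12.6 CPM and the lowest, KRT7-AS, 6.48 CPM. The genes nearest to the limit were ENSG00000242539 at 6.52 CPM and LINC00899 at 6.51 CPM inside it, with LINC00339 at 6.45 CPM, ENSG00000259605 at 6.45 CPM and FAM225A at 6.38 CPM outside it. Only 8 members lay above 100 CPM and 130 above 10 CPM. By name, 63 members were antisense genes, 33 were LINC genes, 15 divergent transcripts, 9 miRNA host genes, 2 intronic or overlapping genes and 33 had other symbols, whereas 45 had a clone-based name or none. Their merged exons had a median length of 4846 bases, against 877 bases for all lncRNAs of the table, and 49 members had 1 merged exon. Exons of 135 members overlapped a gene on the opposite strand and those of 45 overlapped a gene on the same strand, so that 50 members overlapped no other annotated exon. Reads were counted by RSEM, which divides reads between overlapping genes. The kit keeps the strand, but the strand setting of the count is not given in the sources used here, so counts of the 150 overlapping members are less certain than those of the other 50.

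The astrocytic label was checked on 10 markers. GFAP had a median of 0.0804 normalised CPM over the vehicle libraries, and AQP4, S100B and ALDH1L1 were also near 0 (medians 0, 0.05 and 0.0249). VIM (4754), CD44 (2832), SOX9 (82.2) and SLC1A3 (30.6 normalised CPM) were expressed. Fibroblast-like genes such as COL1A1 were abundant (3742), and of the markers of microglia and blood, CD68 had a median of 182.8, PTPRC 10.04 and CX3CR1 0.0603, whereas AIF1 was at 0 in every vehicle library. GFAP and AQP4, which define mature astrocytes, were thus at or near 0, and the cells are called by the name of the line here.

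Several libraries stood apart from others of their group or batch. The members together held 0.589% to 0.616% of all counts in the 6 vehicle libraries and 0.594% to 0.679% after the high dose of WESF, but 0.700% to 0.761% in all 9 EESF libraries, from the lowest dose on. Library 3 of the low dose of WESF had 0.709%, against 0.605% and 0.613% in the other libraries of its group, and its MALAT1 share was 0.137% against 0.0747% and 0.0751%. In this property it lay among the EESF libraries, whose MALAT1 shares were 0.128% to 0.196%. In counts it was also the farthest from its group, since the chi-square divided by its degrees of freedom was 14.1 and 9.30 for the pairs that hold it and 4.77 for the other pair. The same measure set library 1 apart at the high dose of EESF (8.77 and 11.3, against 4.26) and at its medium dose (7.16 and 10.3, against 3.50). Without these libraries, 49 members in place of 44 passed at the high and 6 in place of 7 at the medium dose of EESF (adjusted p under 0.05 and a fold beyond 1.5). Mitochondrial genes held 7.79% to 9.60% of counts after the high dose of WESF and 10.3% to 10.6% in vehicle A, and the same low-dose library had 8.50%. Vehicle libraries of the same number in both batches also resembled each other. Their deviations from the group means correlated at 0.435, 0.227 and 0.263, against 0.0518 at most for unequal numbers, so the vehicles of the batches may not be independent. The medium dose of WESF also correlated by number with the medium dose of EESF (0.133, 0.111 and 0.126) and with its high dose (0.244, 0.144 and 0.134). Where values of both extracts against vehicle stand side by side below, they are each extract's own values and not separate evidence.

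**Figure D1:**
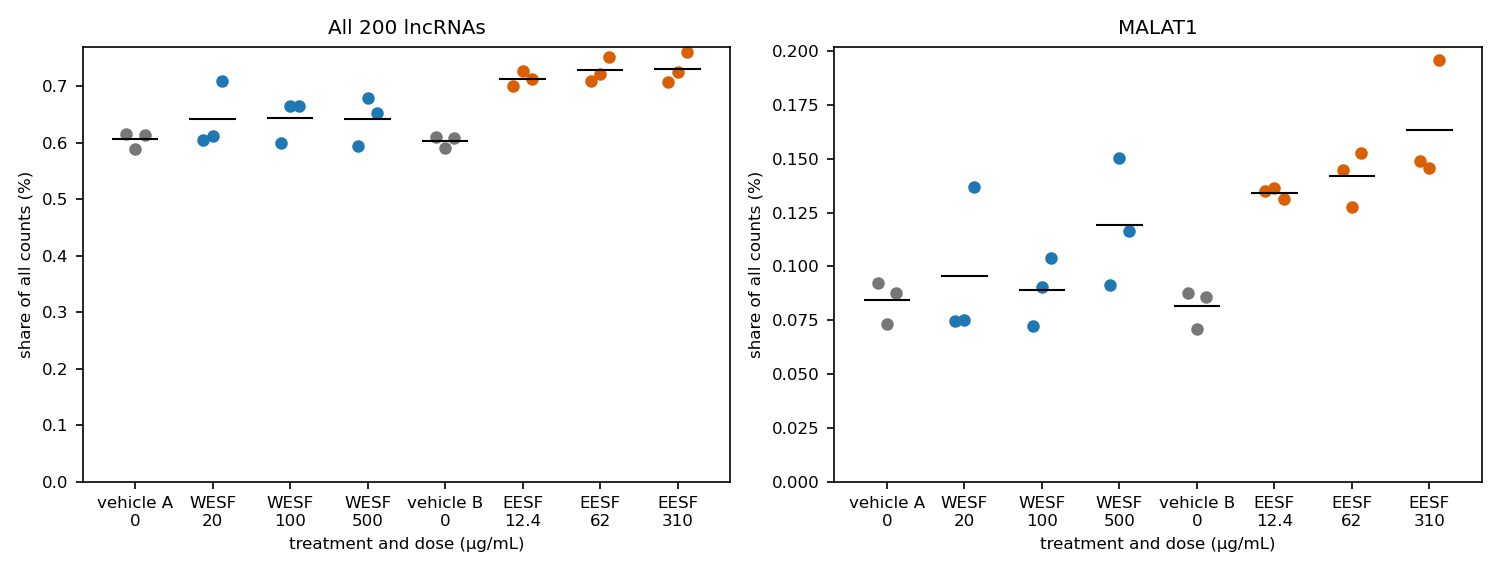
Share of all counts (%) held by the 200 lncRNAs together (left) and by MALAT1 alone (right) in each of the 24 libraries, with dots for libraries and a line for the mean of a group. All 9 EESF libraries lie above the vehicle libraries at every dose (0.700% to 0.761% for the members), and library 3 of the low dose of WESF lies with them at 0.709%.

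MALAT1, the nuclear speckle RNA, had the highest mean of all members in 7 of the 8 groups, and MEG3 was ahead of it at the medium dose of WESF. Of the exonic bases of MALAT1, 8731 also lie in TALAM1 on the opposite strand. Its level was 919.5, 738 and 883 normalised CPM (library sizes scaled by TMM) in vehicle A and 886, 729 and 880.0 in vehicle B. MEG3, an imprinted RNA of the DLK1-DIO3 locus, had 725, 712 and 729 in vehicle A, NORAD, which binds PUMILIO proteins had 346, 362 and 368, and NEAT1, the scaffold of paraspeckles had 364, 344 and 347. The libraries of MALAT1 and MEG3 overlapped in vehicle B but not in vehicle A, and NORAD and NEAT1 overlapped in both vehicles. Below them followed LINC03061 with 203, 193 and 210.0, TUBA1B-AS1 with 138, 173 and 172, FGD5-AS1 with 131, 142 and 136 and ENSG00000258232 with 138, 122 and 136 normalised CPM in vehicle A, where the latter 3 were not separated from each other. Per kilobase of merged exon the order changed. ENSG00000258232, which is 680 bases long, reached 199.3 CPM per kb, against 79.6 for MALAT1 and 35.1 for TUBA1B-AS1. The other members are not ranked here on this measure. Both TUBA1B-AS1 and ENSG00000258232 overlap a tubulin gene on the opposite strand, TUBA1B and TUBA1C. Ranks 11 to 13 were held by ENSG00000280614, ENSG00000280800 and ENSG00000281181 on chromosome 21 (chr21:8393419-8394341, chr21:8210384-8211306 and chr21:8437629-8438551, GRCh38), whose annotated transcripts of 923 bases are identical in sequence, so their reads cannot be told apart. ENSG00000280614 and ENSG00000280800 had equal counts in every library.

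For each dose, the fit against the same batch's vehicle covered all genes of the table, and the members' results were taken from it. A gene passed when its adjusted p (edgeR quasi-likelihood, Benjamini-Hochberg) was under 0.05 and its fold change beyond 1.5. All 200 members passed the filter on low counts in each comparison. In these bulk libraries, less of an RNA per cell and fewer cells with that RNA cannot be told apart.

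At the high dose of WESF, more of the abundant lncRNAs fell than rose. Of the 200 members, 55 fell (27.5%), where 13.8% of all 16030 genes tested fell, and 23 rose (11.5%), against 11.9% of all genes. The median log2 fold change of the members was -0.22, against 0.0019 over all genes. Among 1543 other lncRNAs tested, all of them less abundant in vehicle, 20.2% fell and 17.8% rose, with a median of -0.0070. At the high dose of EESF, 23 members fell (11.5%, against 9.54% of all genes) and 21 rose (10.5%, against 8.88%), with a median of -0.025, so that the members' shares were close to the background of 15973 genes. Among 1542 other lncRNAs tested there, 11.2% fell and 16.1% rose, with a median of 0.078.

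Few members passed at the medium and low doses. After the medium dose of WESF, 1 member fell (0.113% of all genes did) and 0 rose (0.0877% of all genes). After the low dose of WESF, 0 members rose or fell, as did 0.0% and 0.0% of all genes in either direction by edgeR and 0 members by DESeq2. An unadjusted p under 0.05 by edgeR was found there for 16 of 200 members and for 551 of 16081 genes tested, a smaller share. After the medium dose of EESF, 5 members rose (2.5%, against 0.523% of all genes) and 2 fell (1%, against 0.408%). After the low dose of EESF, 4 rose (2%, against 0.272%) and 5 fell (2.5%, against 0.2%), and 3 of the 5 were the chromosome 21 genes with identical sequence. Without library 1 of the low dose of WESF, 1 member passed there, and without library 1 of vehicle A or library 1 of the medium dose, 2 members passed at the medium dose of WESF.

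MIR100HG had the largest rise after WESF among the members. This gene (ENSG00000255248, chr11:122028325-122556721, minus strand, GRCh38) hosts miR-100, let-7a-2 and miR-125b-1. Its level was 36.2, 36.7 and 35.8 normalised CPM in vehicle A, 36.3, 37.5 and 34.3 at the low, 41.8, 41.6 and 41.2 at the medium and 94.6, 96 and 100.4 at the high dose of WESF. Batch B had 37.8, 37.8 and 40.6 in vehicle, 35.5, 39.9 and 34.7 at the low, 41.8, 41.4 and 40.7 at the medium and 75.8, 67.5 and 69.8 at the high dose of EESF. All high-dose libraries lay above all others of their batch, with a log2 fold change against vehicle of 1.43 (SE 0.047, adjusted p = 4.5e-12) for WESF and of 0.88 (SE 0.062, adjusted p = 5.3e-07) for EESF. The mature miRNAs themselves are not measured in these libraries. They are shown because let-7a-5p shares its seed with the miRNAs of other members, and miR-1915-3p because its host is the miRNA host that fell most. Capitals mark the seed (bases 2 to 8), and the sequences are RefSeq's on GRCh38.p14.
hsa-miR-100-5p (chr11:122152275-122152296, minus strand): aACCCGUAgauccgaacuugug
hsa-let-7a-5p (chr11:122146568-122146589, minus strand): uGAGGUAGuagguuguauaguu
hsa-miR-125b-5p (chr11:122099809-122099830, minus strand): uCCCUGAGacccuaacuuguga
hsa-miR-1915-3p (chr10:21496576-21496595, minus strand): cCCCAGGGcgacgcggcggg

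The same mature let-7a-5p is also encoded in MIRLET7BHG (chr22:46112752-46112773, plus strand), and its seed, GAGGUAG, is that of let-7b-5p in MIRLET7BHG and of miR-4458 in MIR4458HG. Neither of these hosts passed at the high doses. MIRLET7BHG was at 24.4, 19.7 and 21.4 normalised CPM in vehicle A and 25.8, 27.1 and 26.1 at the high dose of WESF (log2 fold change 0.27, SE 0.072, adjusted p = 0.00388), and MIR4458HG had -0.23 (SE 0.1, adjusted p = 0.0572) there. Of the 9 miRNA hosts, MIR100HG rose and MIR1915HG and MIR31HG fell after WESF, while MIR100HG and MIR23AHG rose and MIR1915HG fell after EESF. MIR1915HG, host of miR-1915, was at 7.18, 7.7 and 6.8 normalised CPM in vehicle A against 1.66, 1.1 and 2.25 at the high dose of WESF. Batch B had 6.53, 7.41 and 6.29 in vehicle B against 2.76, 2.67 and 2.41 at the high dose of EESF. The groups did not overlap. On the log2 scale WESF gave -2.10 (SE 0.17, adjusted p = 7.1e-08) and EESF -1.36 (SE 0.13, adjusted p = 4.1e-06). MIR23AHG, host of miR-23a, miR-27a and miR-24-2, had 0.58 (SE 0.082, adjusted p = 1.8e-05) on the log2 scale after WESF, which is just under the fold of 1.5, and 0.70 (SE 0.075, adjusted p = 1.2e-05) after EESF. MIR22HG was at 35.7, 35.1 and 36.3 normalised CPM in vehicle A and 33, 28.6 and 30.8 at the high dose of WESF, with log2 fold changes of -0.21 (SE 0.057, adjusted p = 0.00519) for WESF and 0.13 (SE 0.059, adjusted p = 0.0744) for EESF, and passed with neither. MIR31HG had -0.77 (SE 0.12, adjusted p = 6.7e-05) at the high dose of WESF and, within the fold of 1.5, -0.44 (SE 0.12, adjusted p = 0.00955) at that of EESF. MIR4435-2HG had -0.012 (SE 0.074, adjusted p = 0.898) with WESF and 0.19 (SE 0.08, adjusted p = 0.0604) with EESF.

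Other large rises were found in antisense genes. ALDH1A3-AS1 (ENSG00000259583, chr15:100892343-100919391, minus strand) lies opposite ALDH1A3, which encodes a retinaldehyde dehydrogenase of retinoic acid synthesis. It was at 40.3, 40.7 and 47 normalised CPM in vehicle A, 46.6, 46.5 and 44.7 at the low, 49.6, 54.1 and 53.7 at the medium and 114, 108 and 111 at the high dose of WESF. With EESF it went from 44.1, 49.1 and 54.8 in vehicle B to 49.8, 50.2 and 48, 58.9, 60.9 and 61.9 and 96.3, 97.7 and 90.0 at the low, medium and high dose. The medium-dose libraries lay above their vehicle libraries in both batches, at log2 fold changes of 0.31 (SE 0.062, adjusted p = 0.0194) and 0.29 (SE 0.064, adjusted p = 0.00923) that did not reach the fold of 1.5. The high dose reached 1.38 (SE 0.057, adjusted p = 4.8e-11) with WESF and 0.95 (SE 0.073, adjusted p = 1e-06) with EESF. ALDH1A3 itself rose as well, from 585, 587 and 593 to 1294, 1212 and 1222 normalised CPM with WESF and from 589.8, 577 and 589 to 1349, 1314 and 1313 with EESF.

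TMEM147-AS1 (ENSG00000236144, chr19:35540738-35546029, minus strand) rose after either extract. It was at 11, 8.23 and 9.54 normalised CPM in vehicle A and 24.3, 22.5 and 22.8 at the high dose of WESF. It was at 9.48, 8.56 and 10.7 in vehicle B and 21.7, 25.4 and 23.8 at the high dose of EESF. The high-dose libraries were apart from all others, with 1.28 (SE 0.087, adjusted p = 8e-09) on the log2 scale for WESF and 1.31 (SE 0.092, adjusted p = 4.9e-07) for EESF. TMEM147, on the opposite strand, stood at 75.3, 74.9 and 70.8 in vehicle A and 75.6, 70.0 and 75.4 normalised CPM at the high dose of WESF, where the ranges overlapped. THAP9-AS1 went from 21.8, 23.6 and 20.6 in vehicle A to 42.8, 47.4 and 45.8 and from 21.2, 21 and 19.5 in vehicle B to 36.9, 34.5 and 37.6 normalised CPM at the high doses. ZNF710-AS1 changed by 0.96 (SE 0.08, adjusted p = 7.3e-08) and 0.83 (SE 0.096, adjusted p = 2.2e-05). HOTAIRM1, an RNA of the HOXA cluster, changed by 0.98 (SE 0.069, adjusted p = 1.3e-08) and 0.63 (SE 0.079, adjusted p = 4e-05), the latter falling under the fold of 1.5 (log2 0.57) without library 3 of vehicle B.

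KRT7-AS, the least abundant member, moved against its partner. It was at 7.65, 6.15 and 6.92 normalised CPM in vehicle A and 10.7, 15.2 and 13.5 at the high dose of WESF (log2 fold change 0.92, SE 0.12, adjusted p = 1e-05), while KRT7, which encodes a keratin, was at 662, 602 and 636 and 409, 414 and 418 (log2 fold change -0.61, adjusted p = 1.9e-08). With EESF, KRT7-AS went from 6.19, 6.46 and 5.91 to 11.9, 13.3 and 12.3 (1.02, SE 0.09, adjusted p = 2.8e-06) and KRT7 from 627, 602 and 608 to 537, 599.5 and 571 (-0.10, adjusted p = 0.137). The antisense libraries at the high doses lay above those of their vehicle, and the KRT7 libraries lay below them in both batches, by far less with EESF, where KRT7 did not pass.

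Some members rose past the threshold with WESF alone. EBLN3P was at 63.6, 71.3 and 68.9 normalised CPM in vehicle A and 129.6, 131 and 132 at the high dose of WESF, against 66.9, 70.3 and 69.8 in vehicle B and 93.7, 81.9 and 86.4 at the high dose of EESF. Both high-dose groups were above their vehicles, at 0.95 (SE 0.049, adjusted p = 4.2e-10) and 0.34 (SE 0.06, adjusted p = 0.00048). KCNQ1OT1, the imprinted antisense RNA of KCNQ1, was at 18, 17.8 and 22.1 and 37.3, 40.1 and 39.6 with WESF and at 19.6, 20.3 and 21.9 and 29.2, 27 and 29.7 with EESF, at 1.02 (SE 0.074, adjusted p = 1.7e-08) and 0.48 (SE 0.067, adjusted p = 9.7e-05). PDXDC2P-NPIPB14P, a gene with near-identical copies and therefore uncertain, changed by 0.97 (SE 0.091, adjusted p = 2.6e-07) and 0.50 (SE 0.1, adjusted p = 0.00161). OIP5-AS1 (0.53, SE 0.05, adjusted p = 3.1e-07) and NORAD (0.32, SE 0.043, adjusted p = 1.2e-05) were higher at the high dose of WESF by less than 1.5-fold.

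LINC01963 (ENSG00000260804, chr2:216217045-216220192, plus strand), 1 exon of 3148 bases that overlaps no other annotated exon, had the steepest fall among the members detected in all groups. Its level was 9.18, 7.99 and 9.39 normalised CPM in vehicle A, 7.74, 7.49 and 8.48 at the low, 5.04, 5.57 and 5.26 at the medium and 1.61, 1.62 and 1.44 at the high dose of WESF. It was the only member to pass at the medium dose of WESF, with -0.73 (SE 0.099, adjusted p = 0.00305). Batch B had 8.93, 7.76 and 10.3 in vehicle, 8.89, 8.93 and 10.7 at the low, 7.48, 8.19 and 9.49 at the medium and 2.12, 1.56 and 1.8 at the high dose. The medium dose of EESF overlapped its vehicle, and the high doses gave -2.50 (SE 0.13, adjusted p = 6e-10) with WESF and -2.30 (SE 0.15, adjusted p = 3.2e-07) with EESF.

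RAP2C-AS1 (ENSG00000232160, chrX:132217053-132432862, plus strand) fell after both extracts, and RAP2C, a gene of a Ras-like GTPase on the opposite strand, did not pass. The antisense RNA was at 6.22, 6.32 and 6.92 normalised CPM in vehicle A and 1.41, 1.05 and 1.78 at the high dose of WESF. Batch B had 6.43, 7.91 and 7.33 in vehicle B and 3.04, 2.15 and 2.86 at the high dose of EESF. The change in log2 was -2.18 (SE 0.16, adjusted p = 2.1e-08) with WESF and -1.43 (SE 0.15, adjusted p = 9e-06) with EESF, against -0.013 (adjusted p = 0.824) and -0.059 (adjusted p = 0.496) for RAP2C. GAS6-DT (ENSG00000272695, chr13:113864112-113866834, plus strand) is transcribed divergently from GAS6, which encodes a ligand of the TAM receptor kinases. It went from 13.4, 14 and 13.3 to 3.52, 3.34 and 4.46 with WESF and from 13.1, 13.5 and 11.7 to 5.05, 4.44 and 4.78 with EESF, at -1.83 (SE 0.11, adjusted p = 1.4e-09) and -1.42 (SE 0.098, adjusted p = 4.4e-07). GAS6 was at 205, 185 and 189 and 168, 178 and 168 normalised CPM in vehicle A and at the high dose of WESF, which is -0.17 (adjusted p = 0.00819) on the log2 scale.

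The promoters of the members with the largest rise and fall in both extracts are shown where RefSeq's table (GRCh38.p14) holds them, which was so for 121 of the 200 members by symbol. Each runs from 250 bases before to 50 bases after the start, 5′ to 3′ on the gene's strand, with RefSeq's start. This start is that of GENCODE for TMEM147-AS1 and lies downstream of GENCODE's start, used for the gene positions above, by 108 bases in ALDH1A3-AS1, 65 in GAS6-DT and 1454 in RAP2C-AS1. Capitals mark the only matches found to 6 motifs searched on both strands. These were the E-box CACGTG, the cAMP response element TGACGTCA, the AP-1 site TGANTCA, the C/EBP-ATF composite TGATGNAA, the antioxidant response element TGACNNNGC and the TATA box TATAAA.
TMEM147-AS1 (chr19:35545980-35546279, minus strand): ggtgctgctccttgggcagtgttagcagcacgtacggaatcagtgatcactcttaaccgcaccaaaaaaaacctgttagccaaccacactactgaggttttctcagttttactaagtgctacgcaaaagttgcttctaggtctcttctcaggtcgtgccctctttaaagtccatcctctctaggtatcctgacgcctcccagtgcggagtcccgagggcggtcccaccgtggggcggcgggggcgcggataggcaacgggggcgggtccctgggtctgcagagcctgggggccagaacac
ALDH1A3-AS1 (chr15:100919234-100919533, minus strand): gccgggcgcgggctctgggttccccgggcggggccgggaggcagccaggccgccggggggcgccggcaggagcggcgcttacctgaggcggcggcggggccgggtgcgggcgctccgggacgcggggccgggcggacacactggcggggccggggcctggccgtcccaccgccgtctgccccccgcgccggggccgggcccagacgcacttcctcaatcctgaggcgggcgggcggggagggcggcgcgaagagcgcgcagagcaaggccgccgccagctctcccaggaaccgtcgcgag
RAP2C-AS1 (chrX:132218257-132218556, plus strand): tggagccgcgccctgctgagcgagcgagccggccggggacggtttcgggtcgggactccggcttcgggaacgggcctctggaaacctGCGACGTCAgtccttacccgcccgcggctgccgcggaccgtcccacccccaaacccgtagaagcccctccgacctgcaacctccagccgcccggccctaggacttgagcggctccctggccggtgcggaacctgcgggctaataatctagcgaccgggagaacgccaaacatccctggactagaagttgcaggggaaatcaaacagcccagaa
GAS6-DT (chr13:113863927-113864226, plus strand): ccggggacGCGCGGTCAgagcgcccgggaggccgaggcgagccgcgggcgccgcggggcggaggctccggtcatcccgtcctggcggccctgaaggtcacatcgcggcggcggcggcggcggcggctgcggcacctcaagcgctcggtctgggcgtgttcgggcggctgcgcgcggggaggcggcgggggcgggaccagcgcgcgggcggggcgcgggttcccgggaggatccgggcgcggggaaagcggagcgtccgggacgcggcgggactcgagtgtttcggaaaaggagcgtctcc

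Both promoters of the rising genes held no match, and both promoters of the falling genes held TGACNNNGC on the minus strand, as GCGACGTCA from position 88 in RAP2C-AS1 and GCGCGGTCA from position 9 in GAS6-DT. This motif was found in 13.3% of all 35116 promoters of the table and in 19.8% of the 121 members' promoters. The shares of all promoters and of the members' promoters were 7.26% and 9.09% for CACGTG, 1.85% and 1.65% for TGACGTCA, 7.71% and 9.09% for TGANTCA, 3.62% and 1.65% for TGATGNAA, and 11.5% and 5.79% for TATAAA. A match is a description of the letters, and the absence of a match says only that the letters are not in this window.

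Further members fell after both extracts. MIAT, a nuclear RNA first described in myocardial infarction, was at 6.54, 7.46 and 7.22 normalised CPM in vehicle A and 2.4, 2 and 2.04 at the high dose of WESF. Batch B had 6.68, 8.16 and 6.4 in vehicle and 2.63, 2.73 and 2.6 at the high dose. The groups did not overlap, with -1.71 (SE 0.13, adjusted p = 2.7e-08) for WESF and -1.41 (SE 0.13, adjusted p = 4.2e-06) for EESF. LINC02593 changed by -1.86 (SE 0.12, adjusted p = 6.8e-09) and -0.99 (SE 0.14, adjusted p = 8.6e-05), MAP3K4-AS1 by -1.69 (SE 0.12, adjusted p = 1.5e-08) and -0.85 (SE 0.11, adjusted p = 5.4e-05), and PSMG3-AS1 by -0.85 (SE 0.1, adjusted p = 4.5e-06) and -0.998 (SE 0.12, adjusted p = 2.2e-05). DANCR and TP53TG1 passed with WESF alone. DANCR, which hosts small nucleolar RNAs and is known from progenitor cell differentiation, was at 39.8, 37.5 and 35.6 in vehicle A and 21.1, 18.7 and 20.9 at the high dose of WESF (-0.89, SE 0.063, adjusted p = 1.3e-08). Batch B had 34.1, 35 and 33.7 in vehicle and 23, 24.5 and 22.2 at the high dose (-0.55, SE 0.062, adjusted p = 1.7e-05), a separation of the groups within the fold of 1.5, which was passed (-0.60) without library 2 of the high dose. TP53TG1 had -0.77 (SE 0.11, adjusted p = 1.9e-05) with WESF and, within the fold of 1.5, -0.28 (SE 0.11, adjusted p = 0.047) with EESF. CYTOR passed with neither extract, at -0.35 (SE 0.072, adjusted p = 0.00052) and 0.096 (SE 0.073, adjusted p = 0.288).

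ENSG00000263424 (chr18:67506589-67514030, plus strand) had 0 counts in all 3 libraries of the high dose of EESF. All of its 3305 exonic bases overlap DSEL, a dermatan sulfate epimerase-like gene on the opposite strand, so its counts are uncertain. It was at 14, 15.5 and 17 normalised CPM in vehicle B, 5.58, 4.7 and 10.8 at the low, 7.58, 4.36 and 1.59 at the medium and 0, 0 and 0 at the high dose of EESF. Against a floor of 3 counts per library, the high dose was at least 159.8-fold lower than vehicle, a counting limit only that was not tested itself. The edgeR fit of the high dose against vehicle gave an adjusted p of 7.9e-09, which belongs to its fitted change and not to this limit. The low and medium doses lay below vehicle too, at -1.16 (SE 0.2, adjusted p = 0.00678) and -1.75 (SE 0.28, adjusted p = 0.00185). With WESF it went from 13.6, 16.9 and 12.8 to 21, 17 and 12.7, 12.1, 10.8 and 6.8 and 2.57, 1.67 and 0.297 at the low, medium and high dose, with -3.25 (SE 0.28, adjusted p = 1e-07) at the high dose. The latter was -3.92 without library 1 of the high dose and -2.75 without library 3, and the value of the medium dose of EESF was -2.37 without its library 1. DSEL itself fell from 248, 274 and 286 to 92.3, 91.2 and 89.3 with WESF and from 248, 278 and 287 to 128, 111 and 107 normalised CPM with EESF, but was at 252, 252 and 241 at the low dose of EESF.

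**Figure D2:**
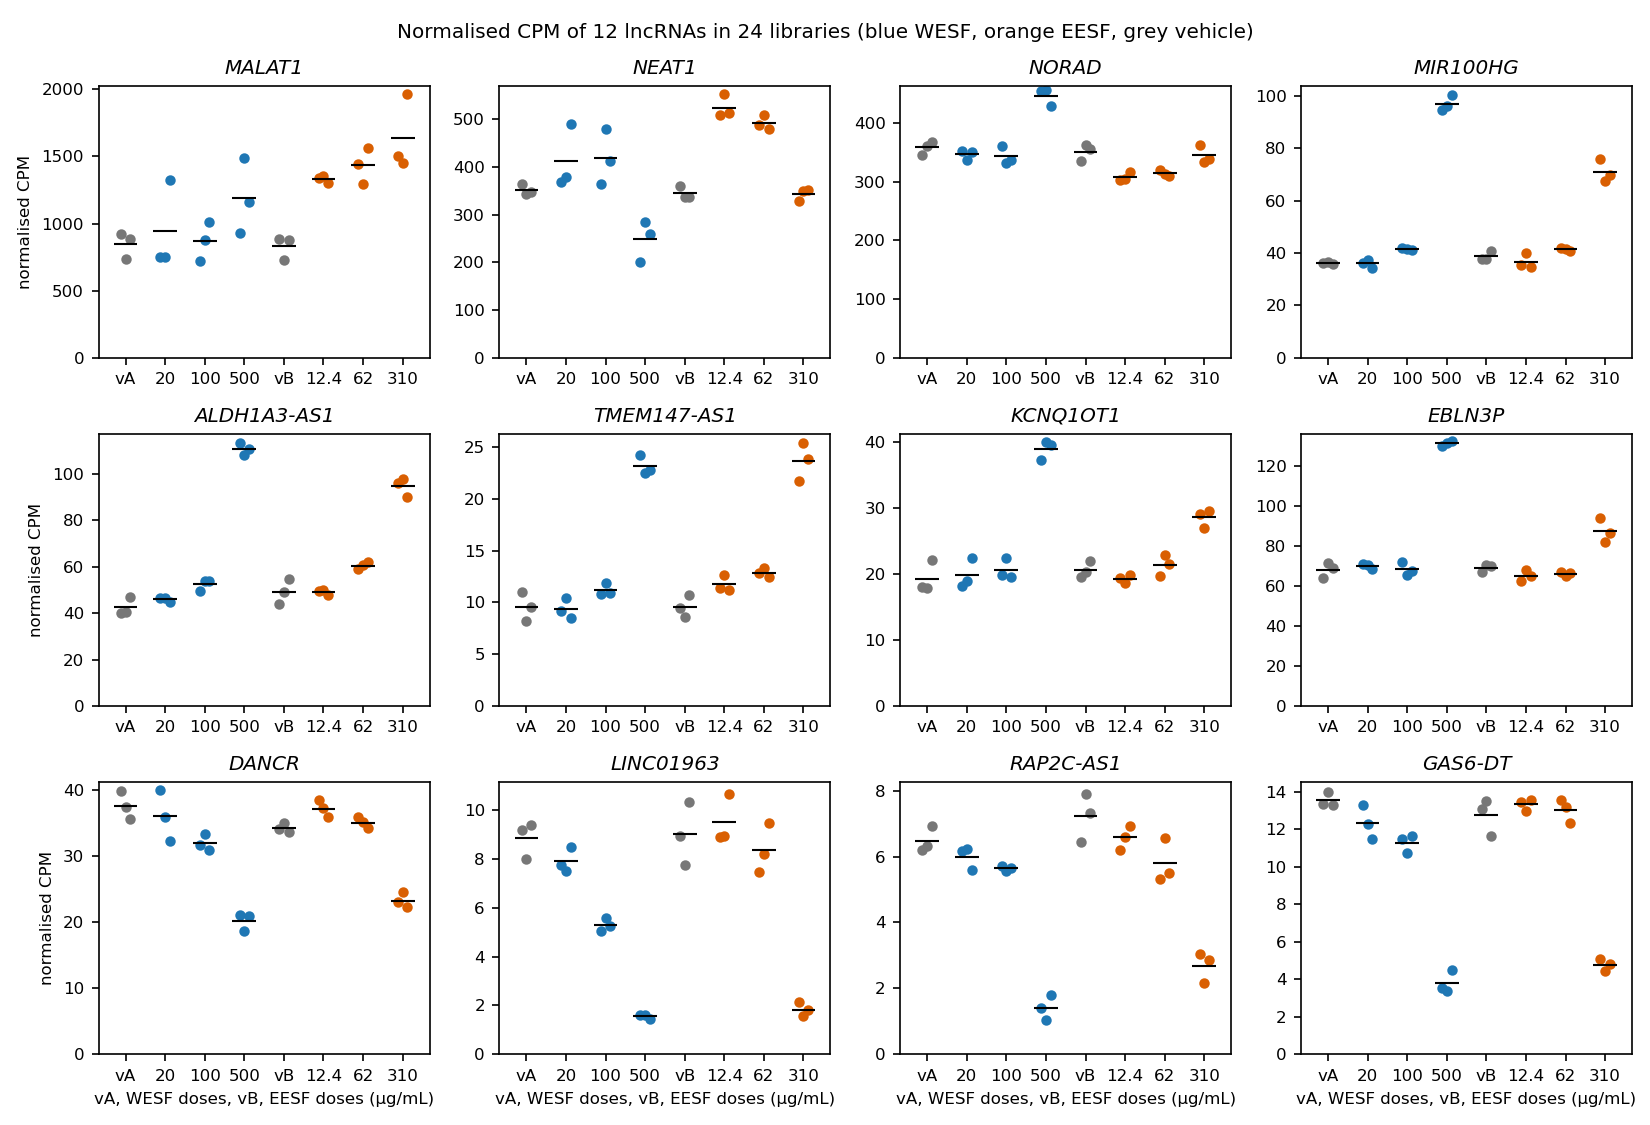
Normalised CPM of 12 members in the 24 libraries, with vehicle A and the WESF doses to the left and vehicle B and the EESF doses to the right in µg/mL; dots are libraries and lines are means of 3. MIR100HG, ALDH1A3-AS1 and TMEM147-AS1 rise and LINC01963, RAP2C-AS1 and GAS6-DT fall at the high doses, whereas MALAT1 is higher at every dose of EESF.

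High and low doses were also compared within each extract, since these libraries did not choose the members and no library is shared between the extracts. With WESF, 22 members rose (11.2% of all genes rose) and 57 fell (28.5%, against 13.4% of all genes). With EESF, 13 rose (6.5%, against 6.84%) and 29 fell (14.5%, against 8.68%). Of the rises, 12 were common to both extracts, 54.55% of those of WESF and 92.31% of those of EESF. Of the falls, 28 were common, 49.12% of those of WESF and 96.55% of those of EESF, and 0 members moved in opposite directions. Over all genes, 806 rises were common, 45.28% of those of WESF and 72.48% of those of EESF, as were 1131 falls, 53.12% and 80.21%, and 3 genes moved in opposite directions. Whether the members' shares differed from these was not tested. Across the 200 members the log2 fold changes had a Pearson's r of 0.725 and a Spearman's rho of 0.857, and across 15760 genes tested with both extracts 0.835 and 0.817, given as a description, since members and genes share libraries within an extract. MIR100HG (1.43 and 0.95), ALDH1A3-AS1 (1.27 and 0.94) and TMEM147-AS1 (1.299 and 1.01) had the largest common rises, ranked by the smaller of both log2 fold changes. After ENSG00000263424, the largest common falls were those of LINC01963 (-2.34 and -2.38) and MIR1915HG (-2.17 and -1.57). DANCR (-0.84 and -0.68) and NEAT1 (-0.74 and -0.61) were among the common falls too. The members that passed with EESF alone, ENSG00000267601 and ENSG00000274333, are unnamed genes and were singled out after their values were seen. ENSG00000267601 was at 2.56, 2.79 and 6.08 and 4.06, 11.1 and 11.3 normalised CPM at the low and high dose, where the libraries overlapped. With library 3 of the low dose of WESF left out, 80 members passed with WESF in place of 79.

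**Figure D3:**
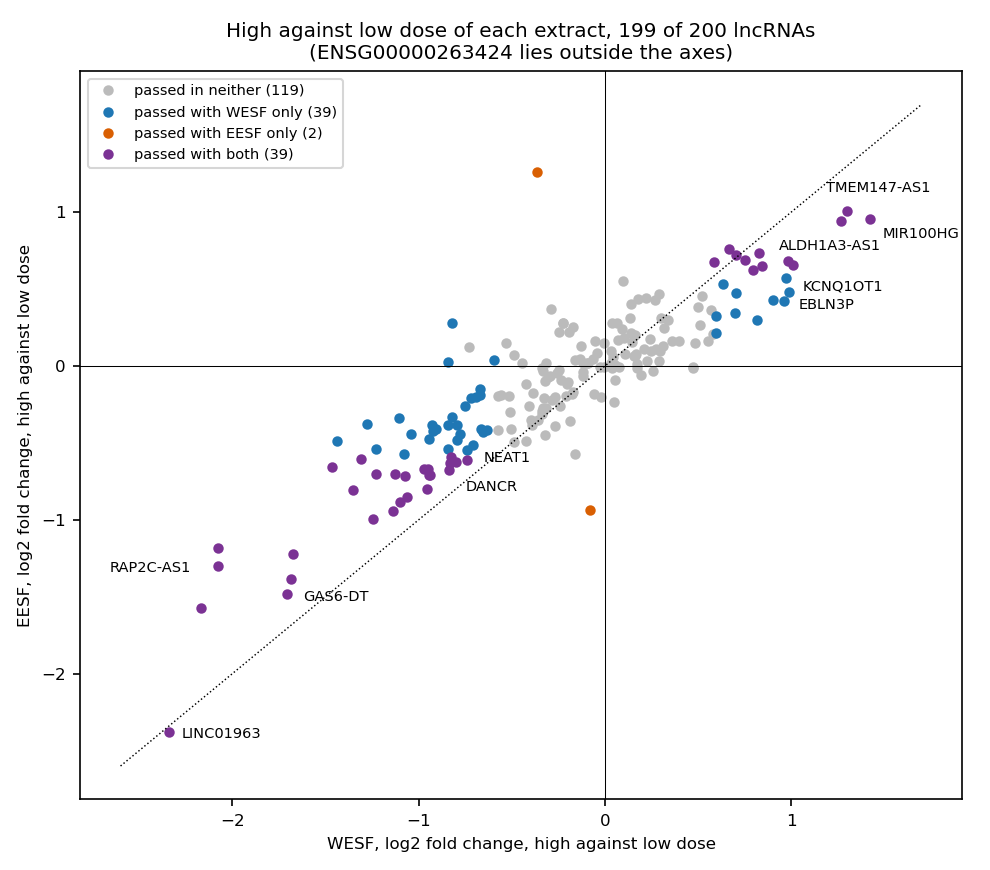
Log2 fold change of the high against the low dose with WESF (horizontal axis) and EESF (vertical axis) for 199 members, each dot 1 lncRNA, coloured by the extract in which it passed; the dotted line marks equal change. Of these, 39 passed with both extracts, 39 with WESF alone and 2 with EESF alone.

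MALAT1 was higher at all 3 doses of EESF, at 1338, 1358 and 1302 normalised CPM at the low, 1441, 1296 and 1562 at the medium and 1505, 1454 and 1963 at the high dose, against 886, 729 and 880.0 in vehicle B. No library of a dose overlapped vehicle, and on the log2 scale the doses gave 0.69 (SE 0.062, adjusted p = 7.2e-05), 0.78 (SE 0.076, adjusted p = 0.00015) and 0.98 (SE 0.11, adjusted p = 1.2e-05). Between the low and the high dose MALAT1 changed by 0.30 (SE 0.089, adjusted p = 0.013), within the fold of 1.5. With WESF the levels were 751, 750.2 and 1323 at the low, 719, 879 and 1008 at the medium and 932, 1488 and 1160 at the high dose. Here libraries 1 and 2 of the low dose lay within the range of vehicle A and library 3 above it, and the high dose differed from vehicle A by 0.50 (SE 0.12, adjusted p = 0.00227). This was 0.31 without library 2 of the high dose and 0.65, past the threshold, without library 1. From the low to the high dose of WESF the change was 0.34 (SE 0.2, adjusted p = 0.162), and without library 3 of the low dose it was 0.67 (SE 0.13, adjusted p = 0.00041), past the threshold. The members' share of counts moved with MALAT1 in the EESF libraries, as given above, and the part of library preparation in this shift was not tested.

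NEAT1 was higher at the lower doses of EESF and its libraries overlapped vehicle at the high dose. It was at 360.3, 337 and 337 normalised CPM in vehicle B, 508, 552 and 512 at the low, 487, 509 and 479 at the medium and 328, 349.7 and 351 at the high dose. The low and medium doses lay above vehicle in every library, at 0.62 (SE 0.046, adjusted p = 1.8e-05) and, within the fold of 1.5, 0.51 (SE 0.048, adjusted p = 0.00012). The high dose did not differ past the threshold either (adjusted p = 0.967). The low dose was under the fold of 1.5 (log2 0.57) without its library 2. With WESF the levels were 364, 344 and 347 in vehicle A, 368, 379 and 491 at the low, 364, 479.6 and 412 at the medium and 201, 284 and 259 at the high dose. All high-dose libraries were below vehicle A, at -0.50 (SE 0.088, adjusted p = 0.00015), within the fold of 1.5, and at -0.61, past it, without library 2. Against the low dose, NEAT1 fell at the high dose of both extracts, with -0.74 (SE 0.12, adjusted p = 0.00017) with WESF and -0.61 (SE 0.049, adjusted p = 9.5e-07) with EESF, and the former was -0.59 (SE 0.096, adjusted p = 9.3e-05) without library 3 of the low dose.

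TUBA1B-AS1 was higher at every dose of EESF, with 136, 198 and 166 normalised CPM in vehicle B and 319, 285 and 290.3, 203, 344 and 479 and 243, 413 and 318 at the low, medium and high dose, at 0.85 (SE 0.093, adjusted p = 0.00072), 1.03 (SE 0.21, adjusted p = 0.0066) and 0.97 (SE 0.16, adjusted p = 0.0004). Its libraries of the WESF doses ranged from 13.1 to 241, with 199, 241 and 38.1 at the low and 82.3, 13.1 and 192 at the high dose, and it did not pass at any dose of WESF. The high dose had -0.74 (SE 0.48, adjusted p = 0.191), which was -0.23 without library 2 and -1.73, past the threshold, without library 3. TUBA1B, which overlaps it, was at 1998, 1896 and 1909 in the high-dose libraries of WESF. The chromosome 21 gene ENSG00000280614, which stands here for the set of 3, was at 51.8, 49.97 and 57 in vehicle B and 31.5, 29.2 and 26.1 at the low dose of EESF (-0.85, SE 0.068, adjusted p = 2.5e-05), but at 24.1, 48.6 and 66.5 at the medium dose, where the libraries spread beyond the vehicle on both sides. At the high dose it had -0.58 (SE 0.064, adjusted p = 1.5e-05), just within the fold of 1.5, and -0.60 to -0.63, past it, without library 1 or 2 of vehicle B or library 3 of the dose. ENSG00000259049 rose at the low (0.61, SE 0.12, adjusted p = 0.00994), medium (0.63, SE 0.1, adjusted p = 0.00185) and high dose (0.88, SE 0.13, adjusted p = 0.00011). ENSG00000269937 fell at the low (-0.59, SE 0.093, adjusted p = 0.00409) and medium dose (-0.79, SE 0.13, adjusted p = 0.00226). At the high dose of EESF it had -0.49, within the fold of 1.5, and did not pass. ENSG00000093100 passed as higher at the medium dose (0.69, SE 0.13, adjusted p = 0.00486) and the high dose (0.85, SE 0.15, adjusted p = 0.00048). Without library 2 of vehicle B its medium-dose change was 0.57, and without library 3 that of ENSG00000259049 was 0.55, both under the fold of 1.5.

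MEG3 stayed within the fold of 1.5 at the high doses, with 811, 802 and 819 normalised CPM at the high dose of WESF (0.17, SE 0.039, adjusted p = 0.00142) and 861, 902 and 826 at that of EESF (0.21, SE 0.051, adjusted p = 0.00481). FGD5-AS1 had overlapping libraries, with 131, 142 and 136 in vehicle A and 139.5, 135 and 133 at the high dose of WESF. LINC03061 had 0.45 (SE 0.053, adjusted p = 2.7e-05) at the high dose of EESF and ENSG00000258232 0.40 (SE 0.093, adjusted p = 0.00166) at that of WESF, which was 0.24 without library 2 of that dose. That library had ENSG00000258232 at 24.7% of the level of TUBA1C, against 16.1% and 16.2% in the others. JPX (-0.23, SE 0.064, adjusted p = 0.00656), TMPO-AS1 (-0.25, SE 0.092, adjusted p = 0.0267) and EPB41L4A-AS1 (-0.057, SE 0.073, adjusted p = 0.513) stayed within the fold of 1.5 with WESF.

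Whether the responses differed at the high dose was tested over 12 libraries as an interaction term. It is positive where the log2 fold change was greater with EESF. All WESF libraries are of batch A and all EESF libraries of batch B, so extract and batch cannot be told apart. The difference was positive for 21 members (10.5%, against 2.25% of all 16653 genes) and negative for 4 (2%, against 1.86%), with a median of 0.19 over the members and 0.020 over all genes. Among 1783 other lncRNAs the median was 0.16, with 4.15% positive and 2.19% negative. With same-numbered vehicle libraries given a shared term, 22 members were positive and 5 negative. Of the 21 positive members, 16 had passed as lower with WESF and 4 with EESF. EXOC3-AS1 was at 9.61, 9.26 and 8.97 normalised CPM in vehicle A and 3.48, 2.53 and 2.93 with WESF, against 8.88, 7.81 and 9.14 in vehicle B and 5.6, 5.89 and 6.1 with EESF, a difference of 1.09 (SE 0.15, adjusted p = 0.00026). LINC00899 was at 6.9, 7.1 and 6.27 and 2.98, 3.25 and 3.91 with WESF, and at 6.98, 6.66 and 5.53 and 6.11, 6.13 and 6 with EESF, where it overlapped its vehicle, a difference of 0.93 (SE 0.16, adjusted p = 0.00126). UCA1, chosen after its values were seen, an RNA known from bladder carcinoma, went from 11.3, 9.75 and 11.7 to 5.01, 4.25 and 4.25 with WESF and from 11.4, 12.4 and 12.7 to 9.21, 9.56 and 8.86 with EESF (0.88, SE 0.13, adjusted p = 0.00041). MOCS2-DT (0.97, SE 0.17, adjusted p = 0.00108) and PCCA-DT (0.90, SE 0.16, adjusted p = 0.00136) differed in the same direction. NEAT1 differed by 0.51 (SE 0.12, adjusted p = 0.00901), within the fold of 1.5.

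The counts by name class are read against the 13.8% of all genes that fell and 11.9% that rose at the high dose of WESF. Of 33 LINC genes, 14 fell and 2 rose (median log2 fold change -0.49). Of 15 divergent transcripts, 7 fell and 0 rose (median -0.54), and of 63 antisense genes 17 fell and 7 rose (median -0.25). Of 45 clone-based genes, 4 fell and 6 rose (median 0.062). At the high dose of EESF, where 9.54% of all genes fell and 8.88% rose, 6 LINC genes fell and 2 rose (median -0.15), 1 divergent transcript fell and 0 rose (median -0.14), 8 antisense genes fell and 8 rose (median -0.0028), and 2 clone-based genes fell and 6 rose (median 0.12). Among the 50 members with no overlapping exon, 21 fell and 2 rose with WESF (median -0.45), compared with 34 and 21 among the 150 with an overlap (median -0.095). With EESF the counts were 10 and 3 (median -0.18) against 13 and 18 (median 0.042). These counts describe the classes and were not tested against each other.

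**Figure D4:**
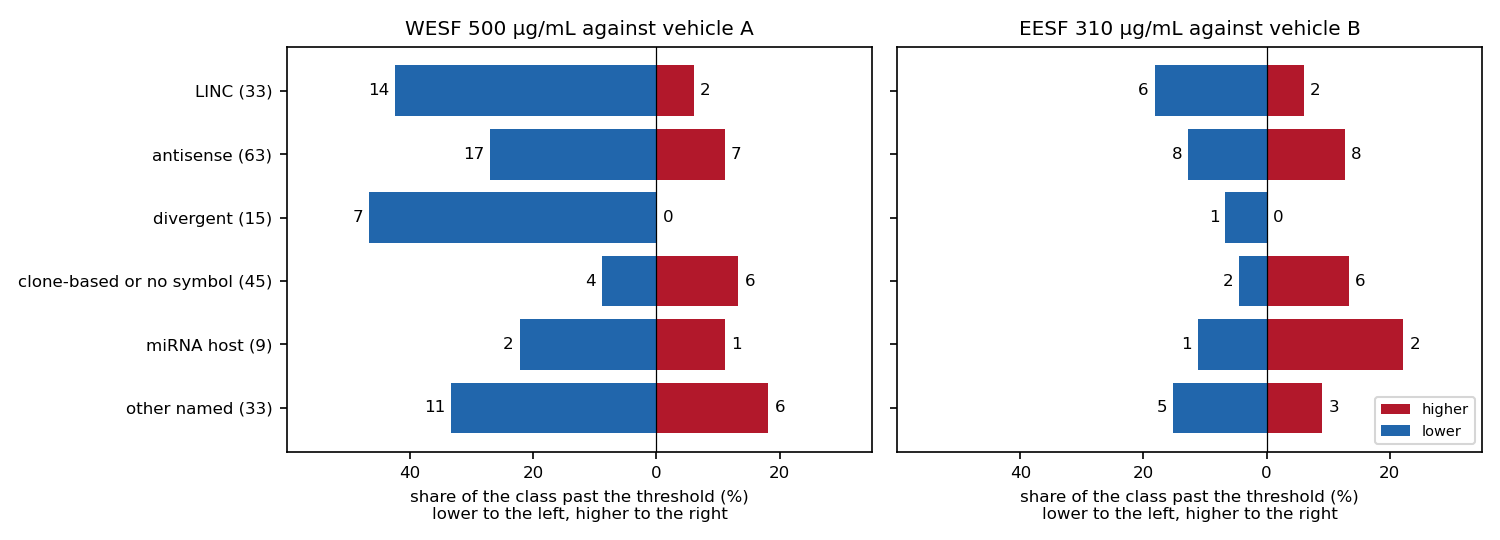
Share of each name class (%) that fell (left, blue) or rose (right, red) past the threshold at the high dose of WESF and of EESF, with the number of genes at each bar and the class size in brackets. LINC genes and divergent transcripts fell in 14 of 33 and 7 of 15 cases with WESF.

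Antisense and divergent members were set beside the protein-coding gene they are named for. With WESF, 24 antisense members passed in 58 pairs tested, and the partner passed in the same direction in 4 of these, in the opposite direction in 1 (KRT7) and not at all in 19. With EESF, 16 passed in 57 pairs, with 3 partners in the same direction and 0 opposite. These partners were 20.8% with WESF and 18.8% with EESF, close to the 23.9% and 17.2% of all protein-coding genes tested that passed. Of 15 divergent members, 7 passed with WESF and 0 of their partners did. The log2 fold changes of antisense members and partners had a Pearson's r of 0.275 with WESF and 0.365 with EESF across the pairs, and those of divergent members and partners one of 0.596 (Spearman's rho 0.632) with WESF and 0.0639 (rho 0.307) with EESF over 15 pairs. The pairs share libraries and in part overlap, so the values are a description. ALDH1A3-AS1, THAP9-AS1, LOXL1-AS1 and ASB16-AS1 were the members that passed with their partner in WESF, and ALDH1A3-AS1, TENM3-AS1 and WARS2-AS1 in EESF. The partner ASB16 was low, at 1.25, 0.848 and 1.22 normalised CPM in vehicle A. At the high dose of WESF it had 0.704, 0.859 and 0.34, and the libraries overlapped.

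**Figure D5:**
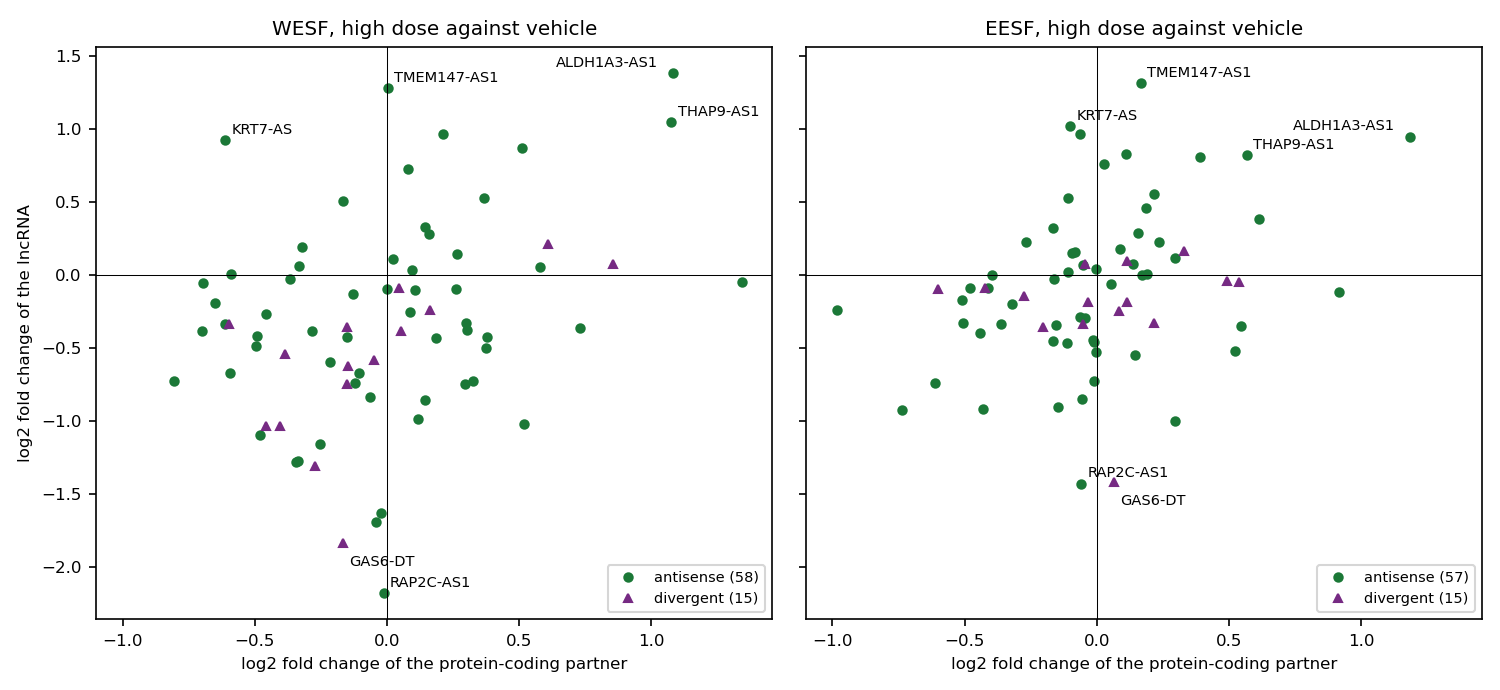
Log2 fold change at the high dose against vehicle of antisense (circles) and divergent (triangles) members on the vertical axis and of the protein-coding gene they are named for on the horizontal axis, for WESF (left) and EESF (right). RAP2C-AS1, GAS6-DT and TMEM147-AS1 lie far from 0 vertically and near 0 horizontally, ALDH1A3-AS1 is high on both axes, and KRT7-AS is opposite to KRT7 with WESF.

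Lists of genes for proteins that bind, process or degrade such RNAs were taken from the same fits. Their counts are small and stand beside 11.9% of all genes higher and 13.8% lower with WESF and 8.88% and 9.54% with EESF. Of 11 paraspeckle protein genes, 2 fell and 0 rose past the threshold with WESF (median log2 fold change -0.33), namely SFPQ (-0.81) and TARDBP (-0.66), and 1 fell with EESF, HNRNPK (-0.60, median -0.16). NONO, the partner of SFPQ in paraspeckles, had -0.33 and -0.19, within the fold of 1.5. Of 20 genes of the nuclear RNA exosome and its adaptors, 3 rose and 0 fell with WESF (median 0.15), EXOSC7 (0.68), ZFC3H1 (0.73) and ZCCHC7 (0.95), and 2 rose with EESF, EXOSC7 (0.62) and ZCCHC7 (0.74, median 0.14). Of 10 nonsense-mediated decay genes, UPF1, the central helicase of that pathway, alone rose with WESF (0.61) and 0 passed with EESF (0.44 for UPF1). Of 7 miRNA processing genes, AGO2 rose with WESF (0.60) and AGO1 fell with EESF (-0.62), both of them Argonaute proteins. Of 28 lncRNAs tested among GAS5, ZFAS1 and the SNHG genes, left out of the members by name, 8 rose and 3 fell with WESF (median 0.26). With EESF, 3 rose and 3 fell (median 0.28). DANCR, a member that hosts small nucleolar RNAs, is not among them. GAS5 rose (0.91 and 0.69) and SNHG14 fell (-0.95 and -0.92) with both extracts, while SNHG1 rose with WESF (0.77) and had 0.52 with EESF, within the fold of 1.5. The medians over all genes tested were 0.0019 with WESF and 0.0046 with EESF.

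Cell type markers also differed between the vehicle and high-dose libraries. Of 10 astrocyte markers, 8 had a lower and 1 a higher mean at the high dose of WESF than in vehicle A, and 7 a lower and 3 a higher mean with EESF than in vehicle B. SLC1A3, a glutamate transporter, had a mean of 30.9 normalised CPM in vehicle A and 10.1 at the high dose of WESF, and 31.0 and 11.7 with EESF. The summed level of the list was 7462 to 7652 in vehicle A and 6281 to 6576 with WESF. VIM, the most abundant, had means of 4696 and 4662 there and CD44 of 2763 and 1674. Of 5 neuronal markers, MAP2 (6.28 and 2.15), SYT1 (24.6 and 13.1) and SNAP25 (27.4 and 8.58) had lower means with WESF, whereas RBFOX3 (0.109 and 0.689) and STMN2 (0.0356 and 0.106) had higher means, both from near 0. Of 4 markers of microglia and blood, PTPRC (9.91 and 2.06) and CX3CR1 (0.0608 and 0.0418) had lower means with WESF, CD68, by far the most abundant (176.5 and 216), a higher one, and AIF1 was at 0. With EESF, PTPRC was at 9.57 and 1.81 and CD68 at 195.8 and 260.1, and the list summed to 192 to 218 in vehicle B and 256 to 266 at the high dose. Of the oligodendrocyte markers, MBP (6.63 and 12.3) and OLIG2 (0.0489 and 0.458) had higher means with WESF, and MOG, which defines mature oligodendrocytes, was at 0. Of 4 epithelial markers, 3 had lower means with WESF, among them KRT18 as the most abundant (120.8 and 45.1). With EESF, 1 had a lower mean, KRT18 (112.9 and 70.1), and 3 had higher means. The 3 endothelial markers summed to 1.10 to 1.25 in vehicle A and 0.414 to 0.977 with WESF. Of 4 fibroblast-like markers, COL1A2 had a higher mean with WESF (1769 and 2062) and the other 3, FN1 as the most abundant among them, lower means. Replication histone genes held 0.0615% of counts in vehicle A and 0.0694% at the high dose of WESF. The part of these shifts in the lncRNA changes was not tested.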

How the data were processed

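RNA of SW1783 cells was made into strand-marking mRNA libraries and sequenced in 100 bp paired reads. The authors trimmed reads with Trim Galore 0.6.6, aligned them with STAR 2.7.9a to GRCh38 and deposited RSEM 1.3.3 expected counts per gene, without normalization. Of the values, 10.9% were not whole. Counts were rounded, genes passed through filterByExpr, and each fit took only the libraries compared, over all genes, with edgeR 4.0.16 (TMM, quasi-likelihood test, 2-sided) in R 4.3.3. The study's DESeq2 (1.42.0 here) was an alternative. Symbols and positions came from GENCODE 44, which holds 56558 of 60675 genes, and the other rows had 0.137% of counts. Normalised CPM used TMM factors of 0.976 to 1.04. Floors of 3 counts cover counting error only. Between libraries of a group, the chi-square over its degrees of freedom was 2.05 to 14.1, above counting noise.

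The members and lists were chosen with earlier results of these data known. Named genes were the 12 most abundant members, the 8 largest rises and falls at each high dose among members whose groups did not overlap and with at least 1 CPM in the higher group, the 5 largest differences in each direction, up to 5 members at each lower dose, well-known lncRNAs and those at the limit. UCA1, other miRNA hosts and members that passed with their partner were named after their values were seen. Fits were also run on simulated data, whose outcome is not given here and on which no result rests. Within a batch, no pair of groups had all 3 correlations between same-numbered libraries over 0.1, although some reached 0.205 (vehicle A with the low dose of WESF) and 0.138 (medium with high dose of EESF). Across batches, the vehicle libraries (0.435, 0.227 and 0.263) and the medium dose of WESF with the medium and high doses of EESF had all 3 over it. Alternatives were another scaling, tool, filter, gene set, member set, blocking by replicate number and leaving out each library. Beyond the marker genes given, the value of a further one is not reported here.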

Additional observations from a re-analysis of the deposited data

Results flagged for a closer look

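The interaction test of the high doses, in which extract and batch cannot be told apart, was passed by 14 of the members named by the rule. UCA1 and ASB16-AS1, which were named after their values were seen, passed it too (0.881, adjusted p = 0.00041, and 0.643, adjusted p = 0.0030). In each sentence the value is the log2 fold change with EESF minus that with WESF, from edgeR with Benjamini-Hochberg adjustment over all genes. ENSG00000259049 had 1.3 (adjusted p = 0.0082), EXOC3-AS1 1.09 (adjusted p = 0.00026), MOCS2-DT 0.975 (adjusted p = 0.0011), LINC00899 0.933 (adjusted p = 0.0013), PCCA-DT 0.897 (adjusted p = 0.0014), LINC02593 0.882 (adjusted p = 0.0064), MAP3K4-AS1 0.844 (adjusted p = 0.0019), ENSG00000093100 0.829 (adjusted p = 0.0153), RAP2C-AS1 0.756 (adjusted p = 0.0288) and MIR1915HG 0.738 (adjusted p = 0.0306). Of these 10 members, 8 had fallen with WESF, and ENSG00000259049 and ENSG00000093100 passed as higher with EESF alone.

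The difference was negative for ENSG00000269937 (-0.874, adjusted p = 0.0078), EBLN3P (-0.600, adjusted p = 0.00014) and SLC9A3R1-AS1 (-0.590, adjusted p = 0.0102). ENSG00000263424 had a fitted value of -8.35 (adjusted p = 0.0010), which depends on how a group at 0 counts is treated. Its WESF libraries at the high dose were at 2.57, 1.67 and 0.297 normalised CPM and those of EESF at 0, and DSEL on the opposite strand overlaps all its exonic bases. No group had more than 3 libraries, so single libraries were not tested as outliers.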

How the results depend on the processing

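The counts of members past the threshold stayed within 1.5 times those reported under DESeq2, DESeq2's size factors, a fit with all groups of the batch, protein-coding and lncRNA genes alone and members chosen by TMM-normalised CPM. Without a filter on low counts, 2 members in place of 0 passed at the low dose of WESF. Among the 50 members with no exon overlap, 23 passed with high WESF, 26 for high against low WESF, 13 with high, 0 with medium and 4 with low EESF, 15 for high against low EESF and 9 for the difference between extracts. Among the 100 highest members 34 passed with high and 0 with medium WESF, 35 for high against low WESF, 18 with high and 3 with medium EESF, 14 for high against low EESF and 6 for the difference. These lists are shorter by construction.

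Leaving out each library in turn gave 76 to 82 members with high, 1 to 2 with medium and 0 to 1 with low WESF, 45 to 49, 5 to 8 and 6 to 11 with EESF in that order, 74 to 83 and 40 to 45 for high against low, and 21 to 29 for the difference. The replicate number as a block gave 78, 1 and 0 members at the WESF doses, 43, 7 and 9 at the EESF doses, 79 and 43 for high against low and 24 for the difference. Libraries of a batch share only the number. Under this block TUBA1B-AS1 passed at the high dose of WESF (-1.14, adjusted p = 0.0258), and without the filter on low counts too (-0.75). A block for same-numbered vehicle libraries, chosen after seeing the data, gave 27 for the difference, and counting the 3 chromosome 21 genes as 1, also chosen then, gave 7 in place of 9 at the low dose of EESF.

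Of 1215 alternatives for 96 named results, 1179 kept direction and side of the threshold, 13 were weaker, 12 stronger (DANCR and ENSG00000280614 with its copy at the high dose of EESF, MALAT1, NEAT1 and TUBA1B-AS1 at that of WESF) and 11 reversed, all of the reversed being near 0. NEAT1 at the high dose of EESF was 0.0056 with no filter and 0.0073 with protein-coding and lncRNA genes alone, and -0.0285 to 0.026 without single libraries. Without single libraries FGD5-AS1 spanned -0.0305 to 0.0234 with WESF and -0.011 to 0.0754 with EESF, MIR4435-2HG -0.066 to 0.0495 with WESF and TMPO-AS1 -0.0145 to 0.1778 with EESF. The difference of EBLN3P was past the fold of 1.5 in all but 3 alternatives (-0.65 to -0.55) and that of SLC9A3R1-AS1 in all but 6 (-0.66 to -0.47). Of nuclear counts alone, the members' mean share was 0.677% in vehicle A, 0.713%, 0.709% and 0.703% at the low, medium and high dose of WESF, 0.684% in vehicle B and 0.810%, 0.837% and 0.827% with EESF. Relative counting error is greater where counts are few, as in members that fell to 2 normalised CPM or less. With 3 libraries a group the spread itself is poorly known. The causes of these shifts were not tested.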
